A study of Mus musculus with 31 samples.

Results

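The 9 libraries of the glucocorticoid receptor (GR) experiment, out of 31 libraries in the series, held unequal amounts of RNA from myeloid cells, and they are described here as a rich and a poor group. The groups were chosen by measured levels of myeloid marker genes. WT 1, WT 5, cKO 1, cKO 3 and cKO 4 form the rich group (5 libraries) and WT 2, WT 3, WT 4 and cKO 2 the poor group (4 libraries), so the rich group holds 2 WT and 3 cKO libraries and the poor group 3 WT and 1 cKO library. The split is not part of the study's design. Every rich over poor difference below is therefore a description without a test.

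The experiment used naive 2D2+ T cells, which carry a transgenic receptor for a myelin protein. These cells came from GR WT or GR KO mice, both labelled C57/B6. The library titles give KO, which is written cKO here. The T cells were turned in culture into homeostatic Th17 cells (Th17Hom), a form of the CD4 T cells that make interleukin 17. They were then given to Rag1 KO recipients to cause experimental autoimmune encephalomyelitis (EAE). At the peak of disease 2000 infiltrating 2D2+ cells per library were sorted from brain and spinal cord. All recipients lacked Rag1, hence T and B cells of their own, but kept their microglia, monocytes and macrophages. Any Cre driver of the knockout, the ages of the mice, and whether libraries came from separate recipients are not given in the sources. The spread between libraries may therefore be partly technical.

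In EAE, T cells that recognise myelin enter the central nervous system and recruit monocytes, which become macrophages beside the resident microglia. Macrophages that take up myelin debris handle much cholesterol, and Apoe, which carries cholesterol out of cells, is abundant in them and in activated microglia. T cells that divide express the genes of DNA replication and mitosis, and their growth draws on glycolysis and on cholesterol synthesis. GR, the product of Nr3c1, is a receptor that enters the nucleus on binding corticosteroids and switches genes on or off.

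The 9 libraries held 3552871 to 5623305 counts. A set of 12 predicted genes with repeat-like behaviour took 14.4 to 54.6% of the counts in the rich libraries and 17.1 to 41.7% in the poor ones, so these ranges overlap. Levels are given as CPM, counts scaled to a common library size after TMM scaling, which sets libraries against each other by the bulk of their genes. The leading principal component of the log2 levels carried 41.5% of the variance and placed the 5 rich libraries at 12.0 to 31.8 and the 4 poor ones at -44.3 to -9.15. The sum of 18 T cell genes, among them Cd3e, Lck and the receptor constant genes Trac and Trbc2, was 19630 ± 2085 CPM (SD, n = 5) in the rich group and 19860 ± 2164 (n = 4) in the poor group, with overlapping ranges. Trbc2 weighed most in this sum, with 86489 counts in WT 1 beside 17221 for Trac. By gene, 15 of the 18 had a lower mean in the rich group, with a median log2 ratio of -0.09. Of these genes 2 were lower without overlap, beside 11.0% of all genes past the low-count filter. In these bulk samples, fewer cells of a type and less RNA per cell cannot be told apart.

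The groups were set from measured myeloid marker levels, and the rule names no gene set. Myeloid RNA is summed here over 48 genes from 4 lists, of general myeloid cells, monocytes and macrophages, microglia and complement C1q. None of these genes is independent of the grouping, so their counts and ratios below describe the groups and nothing is read from them. The sum was 23350, 26770, 21100, 27840 and 27000 CPM in rich WT 1, WT 5, cKO 1, cKO 3 and cKO 4, and 12650, 6887, 8882 and 14900 CPM in poor WT 2, WT 3, WT 4 and cKO 2. By this sum the rich library nearest to the poor group was cKO 1, and the poor library nearest to the rich group was cKO 2. Apoe alone made up 40.5 to 44% of this sum in the rich libraries and 7.18 to 24.8% in the poor ones. Without Apoe the sum was 14490 ± 1383 CPM against 8884 ± 2078, a ratio of 1.63, and the lowest rich library (12330) stayed above the highest poor one (11210). The separation needs the scaling: with library totals alone, the 48-gene sum ran from 15200 to 31520 CPM in the rich libraries and from 7616 to 19020 in the poor ones, so the groups overlapped, while Apoe stayed apart (6317 to 12770 against 547 to 4712).

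Apoe (chr7:19696109-19699188, minus strand, GRCm38) stood at 9462 CPM in WT 1, 11352 in WT 5, 8770 in cKO 1, 12260 in cKO 3 and 11759 in cKO 4. In the poor libraries it stood at 2872 CPM in WT 2, 494 in WT 3, 725 in WT 4 and 3693 in cKO 2. The rich mean of 10721 ± 1520 CPM was 5.51 times the poor mean of 1946 ± 1582, and WT 2 and cKO 2 lay between the rich libraries and the pair WT 3 and WT 4. Relative to its mean, Apoe spread far more in the poor group than in the rich group. The plot of levels by library shows Apoe, the sum of the other 47 myeloid genes, the T cell list and the proliferation list side by side.

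**Figure D1:**
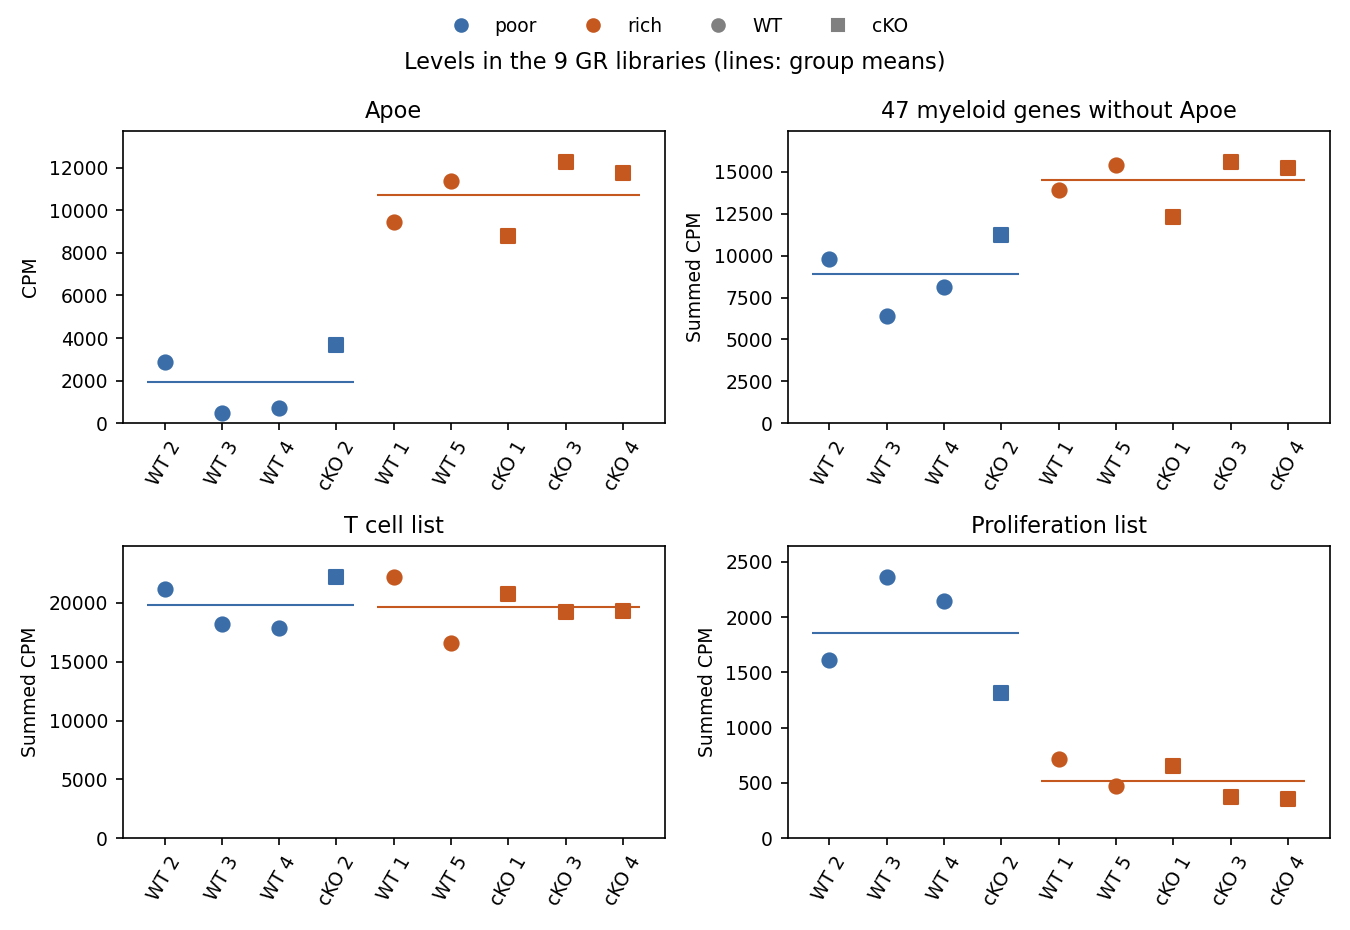
Levels in CPM (y axes, from 0) of Apoe and of the summed lists in each of the 9 GR libraries (x axes), poor libraries in blue and rich in orange, WT as circles and cKO as squares, with lines at the group means. Apoe and the sum of the 47 other myeloid genes are higher in every rich library than in any poor one, the T cell sums overlap, and the proliferation sums run from 351 to 720 CPM in the rich libraries against 1312 to 2364 in the poor ones.

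All 18 general myeloid genes had a higher mean in the rich group, with a median log2 ratio of 0.61 beside 0.02 for the 10597 genes that passed the low-count filter, and 9 of them did not overlap between the groups at any fold. Over all genes, 8.12% were apart and higher in this sense and 11.0% apart and lower. Adgre1, the macrophage surface protein F4/80, was 74.2 ± 14.5 CPM in the rich group and 30.9 ± 11.8 in the poor group. Cd68, a lysosomal membrane protein of macrophages, was 190 ± 13.9 against 91.6 ± 28.0 CPM. Csf1r, the receptor for the growth factor that keeps microglia and macrophages alive, was 567 ± 98.9 against 331 ± 62.5 CPM. Fcgr3, an antibody receptor, differed least (183 ± 28.1 against 153 ± 32.1 CPM, overlapping). The list did not move as a block: its log2 ratios spread from 0.26 for Fcgr3 to 1.60 for Ms4a7.

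Of the 11 microglial genes, which belong to the same 48, 11 had a higher mean in the rich group and 7 were apart, with a median log2 ratio of 0.86. Trem2, a lipid-sensing receptor of microglia and macrophages, was 207, 281, 178, 237 and 210 CPM in rich WT 1, WT 5, cKO 1, cKO 3 and cKO 4 and 106, 69.6, 76.0 and 115 CPM in poor WT 2, WT 3, WT 4 and cKO 2. The 2 groups of Trem2 values do not overlap. P2ry12, a purine receptor used to tell microglia from infiltrating macrophages, was 165 ± 46.6 against 76.3 ± 22.8 CPM, and Tmem119, another microglial marker, 208 ± 45.1 against 115 ± 17.4. Cx3cr1, the fractalkine receptor, was 286 ± 49.1 against 136 ± 12.5 CPM. Of the 3 C1q chains, C1qa and C1qb were apart and higher (log2 ratios 0.88 and 0.71) and C1qc overlapped.

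The monocyte and macrophage list was mixed. Of its 15 genes past the filter, 10 had a higher mean in the rich group and 5 a lower one, while 2 (Apoe and Cd63) were apart and higher and 1 (Arg1) was apart and lower. Ly6c2, which marks inflammatory monocytes and also some T cells, had a mean of 81.9 ± 11.7 CPM in the rich group and 161 ± 71.5 in the poor group. Plac8, likewise shared by monocytes and T cells, was 56.4 ± 7.82 against 161 ± 81.4 CPM, and both genes overlapped between the groups. Arg1, the arginase of inflammatory macrophages, was apart and lower in the rich group (28.4 ± 9.81 against 89.6 ± 49.5 CPM), with its high values in WT 4 (134) and cKO 2 (131). Cd63, a membrane protein of late endosomes, was apart and higher (211 ± 20.7 against 103 ± 55.0 CPM). Gpnmb, induced in lipid-laden macrophages, ranged from 24.2 to 124 CPM in the rich libraries and from 2.56 to 29.0 in the poor ones, so it overlapped despite a log2 ratio of 2.36. The median log2 ratio of the 15 genes was 0.17 and changed sign with library totals alone and in the cKO libraries alone.

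Antigen presentation did not separate the groups. The 9 MHC class II genes, which present peptides to CD4 T cells, summed to 3872 ± 514 CPM in the rich group and 3718 ± 977 in the poor group, and 0 of the 9 were apart. Cd74, the invariant chain, was 1278 ± 131 against 1177 ± 298 CPM. The summed neutrophil list was higher in the rich group without overlap (116 to 146 against 70.7 to 108 CPM). Of its 14 genes 5 passed the filter and 4 of these had higher means, with Csf3r, the receptor for granulocyte colony-stimulating factor, apart (51.0 ± 4.23 against 26.2 ± 7.496 CPM). The granule and surface markers Camp and Elane had 0 counts in all 9 libraries and Ly6g at most 0.19 CPM, below the floor of 3 counts per library (0.495 to 1.05 CPM). The dendritic cell list overlapped as a sum (51.6 to 117 against 46.3 to 121 CPM), although Itgax, the integrin CD11c, was apart and higher (16.3 ± 4.38 against 6.96 ± 1.98 CPM).

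Across all 10597 genes past the filter, 146 (1.38%) were at least 2-fold higher in the rich group with no overlap between libraries, and 268 (2.53%) were at least 2-fold lower in the same sense. With the threshold moved to 1.5-fold these counts became 510 and 602, and with 3-fold 16 and 134, so the lower genes made up more of the large differences. Scaling by library totals left 30 higher genes. Leaving out cKO 2, the only poor cKO library, gave 291 higher genes.

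**Figure D2:**
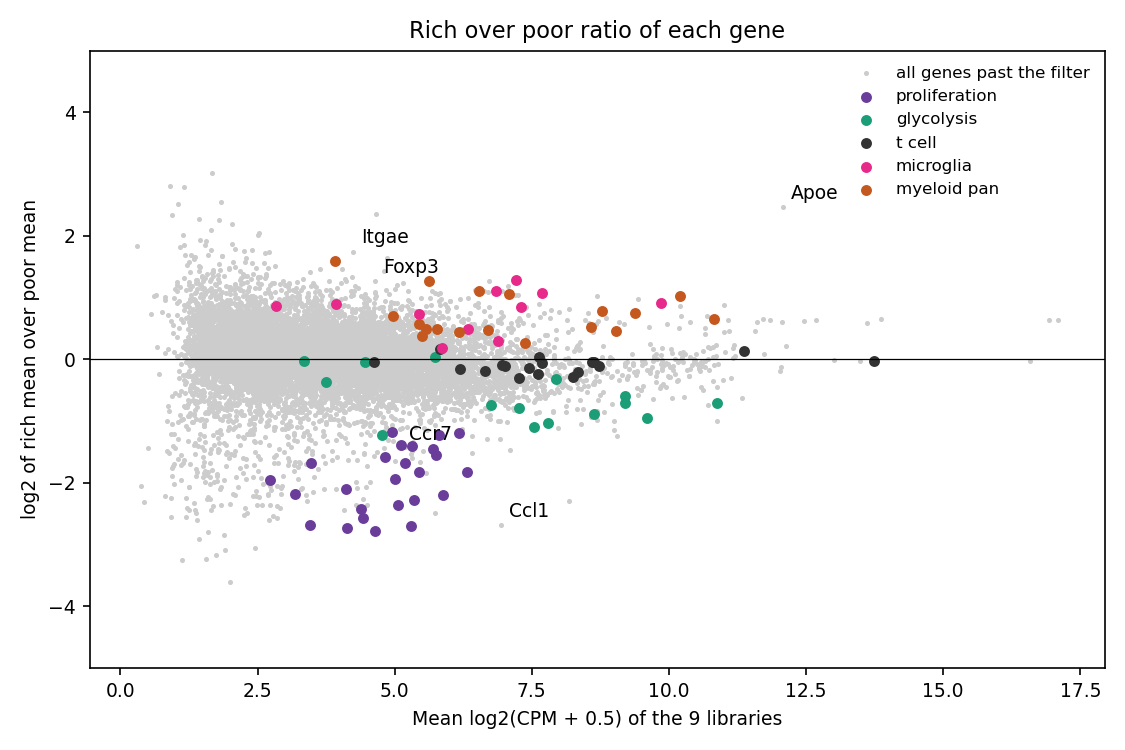
Log2 ratio of the rich mean to the poor mean (y axis) against the mean log2(CPM + 0.5) over the 9 libraries (x axis) for each gene past the filter (grey), with the members of 5 gene lists in colour and 5 genes named. Proliferation genes lie between -2.79 and -1.17, T cell genes lie around 0, and the myeloid and microglial genes lie above 0.

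Of the 15 most strongly higher genes whose mean log2 CPM reached 4, only some are known from macrophages. Apoe led, and Trem2, Adgre1, Cd9 and Gas6 were among them. Cd9, a tetraspanin of many cells, was 198 ± 31.1 against 86.6 ± 25.2 CPM, and Gas6, a bridging protein that helps phagocytes take up dying cells, was 28.9 ± 7.29 against 12.9 ± 3.11. Pmp22, a myelin protein also made outside Schwann cells, was 43.9 ± 7.87 against 16.2 ± 5.07 CPM. Fosb, an immediate-early transcription factor, was 23.9 ± 6.37 against 10.1 ± 4.18 CPM. Arhgap39, Snx29, Rin2, Pnpla7 and Tmem86a completed the group with log2 ratios of 1.20 to 1.46. Mylip, the ligase that removes the LDL receptor, is taken up below with cholesterol.

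Itgae and Foxp3, 2 genes known from T cells, were also among these 15. Itgae, the CD103 integrin of tissue-resident and regulatory T cells, was 30.8, 43.5, 30.7, 27.6 and 25.6 CPM in rich WT 1, WT 5, cKO 1, cKO 3 and cKO 4 and 8.51, 9.27, 7.68 and 12.4 CPM in poor WT 2, WT 3, WT 4 and cKO 2. Foxp3, the transcription factor that defines regulatory T cells, was 34.1, 53.6, 36.3, 27.4 and 32.2 CPM in the same rich libraries and 13.6, 14.5, 14.1 and 19.1 CPM in the poor ones. Neither gene overlapped between groups, and both have WT 5 as their highest library and cKO 2 as their highest poor library. The regulatory T cell list was divided: of its 11 genes past the filter 5 had higher and 6 lower means in the rich group. Of the 11, 2 were apart and higher and 2 apart and lower, beside 8.12% and 11.0% of all genes. Il2ra, the high-affinity chain of the interleukin 2 receptor, was apart and lower in the rich group (37.6 ± 4.29 against 59.9 ± 15.02 CPM). Tnfrsf18, the co-stimulatory receptor GITR, was also apart and lower (117 ± 17.2 against 181 ± 34.6 CPM). Nrp1 was apart and higher by a small margin (29.0 ± 2.76 against 22.9 ± 3.15 CPM), Ctla4 overlapped, and the list's median was -0.33 (0.06 in the cKO libraries alone).

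The genes that were lower in the rich group were led by cell division. All 25 proliferation genes were apart and at least 2-fold lower, beside 2.53% of all genes. Their median log2 ratio was -1.95, and this median stayed between -2.08 and -1.37 under 18 other settings. Their sum was 720 CPM in WT 1, 474 in WT 5, 657 in cKO 1, 377 in cKO 3 and 351 in cKO 4, against 1616 in WT 2, 2364 in WT 3, 2148 in WT 4 and 1312 in cKO 2. No rich library reached the lowest poor one, and within the groups the order ran roughly opposite to Apoe: cKO 3 and cKO 4 had the highest Apoe and the lowest sums, while WT 3 and WT 4 had the lowest Apoe and the highest sums. With libraries scaled to the T cell list in place of TMM the sums were 357 to 637 CPM against 1162 to 2550, again apart. The part of myeloid RNA in this difference was not tested.

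The list spans the cell cycle. Birc5, the survivin subunit of the complex that guides chromosome segregation, was 14.7, 9.82, 19.4, 6.18 and 5.06 CPM in rich WT 1, WT 5, cKO 1, cKO 3 and cKO 4 and 71.9, 81.6, 93.1 and 57.4 CPM in poor WT 2, WT 3, WT 4 and cKO 2. Cdk1, the kinase that drives entry into mitosis, was 21.0 ± 7.95 against 102 ± 27.6 CPM, and its partners Ccnb1, Ccnb2 and Ccna2 had log2 ratios of -2.58, -2.73 and -2.42. Replication genes differed less than these: the subunits Mcm2 to Mcm7 of the replicative helicase had log2 ratios from -1.83 (Mcm5) to -1.17 (Mcm4), and Pcna, the sliding clamp, -1.22. Rrm2, which makes DNA building blocks, was 16.6 ± 6.54 against 85.8 ± 31.5 CPM. Ube2c, which hands ubiquitin to the complex that ends mitosis, and Stmn1, which loosens microtubules, had log2 ratios of -2.71 and -2.19. Outside the list, the naming rule added Pclaf, Cdca8 and Spc24, with log2 ratios of -2.45, -2.36 and -2.27, and the replication-dependent histones Hist1h2ap, Hist2h3b and Hist2h3c2. Those histone genes belong to a family of near-identical copies, among which the counting could split reads.

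Because these genes moved together, the stretch from 100 bases before to 20 bases after the start of 3 mitotic genes is shown, from the RefSeq table of GRCm38.p6 (the same assembly as mm10), with capitals for CCAAT, the box bound by NF-Y, and for TTTGAA, the core of the cell cycle genes homology region, on either strand. Ccnb2 lies at chr9:70421535-70421654 (minus strand), Cdk1 at chr10:69352893-69353012 (minus strand) and Ube2c at chr2:164769829-164769948 (plus strand).
Ccnb2: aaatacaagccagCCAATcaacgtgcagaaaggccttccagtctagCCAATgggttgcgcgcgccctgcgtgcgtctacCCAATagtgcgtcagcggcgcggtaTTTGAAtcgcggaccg
Cdk1: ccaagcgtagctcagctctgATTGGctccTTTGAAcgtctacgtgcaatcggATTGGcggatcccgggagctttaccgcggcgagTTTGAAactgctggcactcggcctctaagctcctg
Ube2c: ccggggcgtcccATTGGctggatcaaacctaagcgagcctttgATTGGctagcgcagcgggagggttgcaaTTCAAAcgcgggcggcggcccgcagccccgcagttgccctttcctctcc
In windows from 250 bases before to 50 after the start, CCAAT was present in 18 of the 21 proliferation genes found in the table and in 37.9% of all 27025 promoters. TTTGAA was present in 10 of the 21 and in 18.1% of all. These matches describe letters only.

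Ccl1, a chemokine made by activated T cells, was 61.4, 49.4, 30.7, 94.5 and 61.0 CPM in rich WT 1, WT 5, cKO 1, cKO 3 and cKO 4 and 346, 422, 646 and 115 CPM in poor WT 2, WT 3, WT 4 and cKO 2. The groups were apart, but cKO 2 at 115 CPM lay nearer to the rich libraries than to the poor WT libraries. The log2 ratio was -3.09 within WT and -0.90 within cKO.

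Metabolic genes were lower as well. Of the 15 glycolysis genes 14 had a lower mean in the rich group, with a median log2 ratio of -0.71. Apart and lower were 11 of them, beside 11.0% of all genes. Ldha, which turns pyruvate into lactate, was 588 ± 57.6 against 1133 ± 243 CPM, Pgk1 134 ± 17.3 against 285 ± 60.1, and Slc16a3, the lactate exporter, 18.6 ± 2.03 against 43.4 ± 13.4. Hk2, the entry enzyme hexokinase, was 22.1 ± 6.33 against 22.7 ± 6.54 CPM and Pfkl, a phosphofructokinase, had a log2 ratio of 0.04, both overlapping. Pfkp, another phosphofructokinase, was apart and lower (87.3 ± 16.3 against 145 ± 24.8 CPM). All 17 genes of oxidative phosphorylation had lower means, 13 of them apart beside the same 11.0%, with a median of -0.48. Cox5a, a subunit of cytochrome c oxidase, was 153 ± 17.3 against 276 ± 43.0 CPM, whereas Sdha, of complex II, was 94.7 ± 2.42 against 97.7 ± 3.28 CPM.

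All 21 cholesterol synthesis genes past the filter had lower means in the rich group, with a median of -0.71. Apart and lower were 8 of them, beside 11.0% of all genes. Fdps, which makes farnesyl diphosphate, was 25.3 ± 2.49 against 76.4 ± 38.9 CPM, and Hmgcs1, the enzyme before the rate-limiting step, 12.9 ± 0.58 against 26.7 ± 10.9. The summed list held to a narrow range of 291 to 306 CPM in the 5 rich libraries and spread from 349 to 653 CPM in the poor ones, where WT 3 and WT 4 were high (653 and 594) and WT 2 and cKO 2 lower (408 and 349). With library totals or with T cell scaling these sums overlapped. A set of other lipid-handling genes was put together after values were seen and is no independent list. Of its 8 genes past the filter, 5 were apart and higher (Abca1, Abcg1, Lpl, Pltp and Mylip), beside 8.12% of all genes. Scd2 was apart and lower, and Nr1h3 and Srebf1 overlapped. The cholesterol efflux pumps Abca1 and Abcg1 were 14.6 ± 2.22 against 5.90 ± 2.17 CPM and 29.5 ± 2.86 against 14.8 ± 5.52 CPM. Mylip was 27.3 ± 4.15 against 12.0 ± 2.06 CPM, and Lipa, the lysosomal lipase of the iron and lipid list, 31.6 ± 3.33 against 17.8 ± 3.56 CPM. Macrophages and T cells both carry these programmes, and the cell type behind each difference was not tested.

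For the same reason the matching stretch of Hmgcs1 (chr13:119690251-119690370, plus strand) is shown with CCAAT in capitals on either strand, next to Ctss (chr3:95526686-95526805, plus strand), a myeloid cathepsin, and Trem2 (chr17:48346301-48346420, plus strand) with GAGGAA, the core bound by the myeloid factor PU.1, in capitals on either strand.
Hmgcs1: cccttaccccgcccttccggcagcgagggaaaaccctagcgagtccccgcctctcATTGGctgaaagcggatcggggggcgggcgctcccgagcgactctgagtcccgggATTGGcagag
Ctss: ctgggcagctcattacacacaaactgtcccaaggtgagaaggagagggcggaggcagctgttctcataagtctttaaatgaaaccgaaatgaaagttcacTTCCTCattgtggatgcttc
Trem2: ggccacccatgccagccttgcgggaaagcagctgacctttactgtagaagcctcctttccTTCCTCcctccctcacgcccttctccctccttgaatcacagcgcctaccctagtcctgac
CCAAT was present in 15 of the 16 cholesterol genes found in the table, and TCACNCCAC, a sterol response element, in 1 of the 16 and in 1.22% of all promoters. GAGGAA was present in 9 of the 12 general myeloid genes found, in 2 of 8 microglial genes and in 6 of 9 T cell genes, beside 28.3% of all promoters.

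Lysosomal genes ran with the myeloid genes. Of 16 past the filter 15 had higher means in the rich group, with a median of 0.66. Apart and higher were 10 of them, beside 8.12% of all genes. Ctsd, an aspartic protease, was 2800 ± 330 against 1519 ± 612 CPM, and Ctsb, a cysteine protease, 1571 ± 139 against 863 ± 322. Ctsc was the exception (165 ± 29.9 against 177 ± 25.2 CPM, overlapping).

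**Figure D3:**
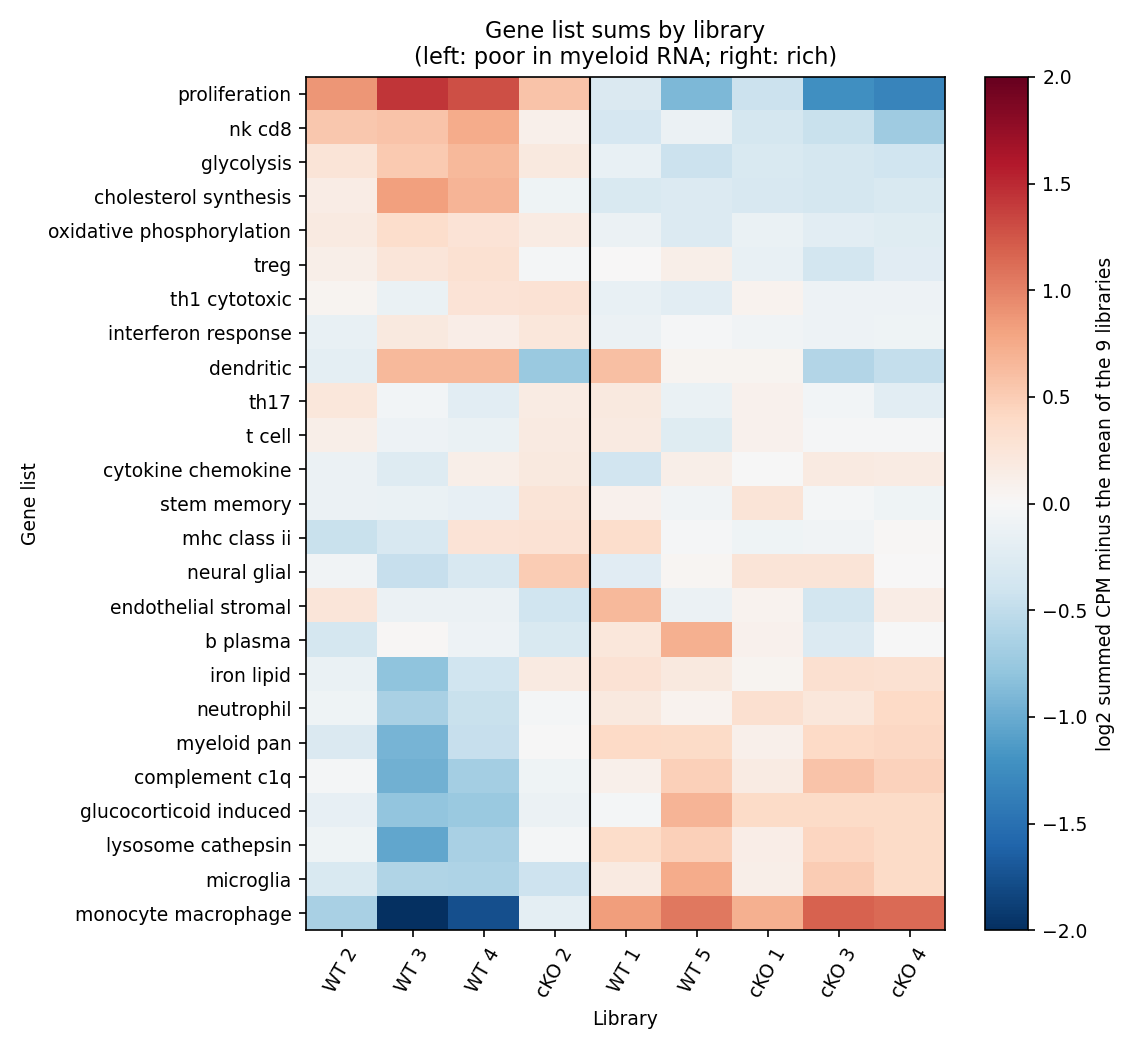
Summed CPM of each gene list (rows) in each GR library (columns; 4 poor on the left, 5 rich on the right) as log2 minus the mean of the 9 libraries, blue below and red above. Proliferation, glycolysis, cholesterol synthesis and oxidative phosphorylation are above their mean in the poor libraries, with cholesterol synthesis in cKO 2 as an exception, and the macrophage, microglia, lysosome and C1q lists are above it in the rich ones.

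Effector T cell genes differed in part. Ifng, the main Th1 cytokine, was 10.3, 21.7, 10.02, 22.2 and 16.2 CPM in rich WT 1, WT 5, cKO 1, cKO 3 and cKO 4 and 23.7, 67.1, 72.2 and 28.4 CPM in poor WT 2, WT 3, WT 4 and cKO 2. The groups are apart by a small gap, and the large difference sits in WT 3 and WT 4. Tbx21, the Th1 master transcription factor, was 17.4 ± 2.41 against 35.7 ± 10.3 CPM, Il12rb2, the receptor chain through which interleukin 12 acts, 10.6 ± 1.63 against 33.1 ± 11.7, and Nkg7, a cytotoxic granule protein, 254 ± 31.1 against 443 ± 88.5, all apart. Gzma, a granzyme, was apart and lower (12.1 ± 4.37 against 37.7 ± 10.2 CPM), and Gzmb overlapped (13.8 to 42.3 against 40.2 to 102 CPM). Il18r1 went the other way (59.6 ± 7.51 against 38.9 ± 12.4 CPM), with rich cKO 1 only just above poor WT 2, so the groups are barely apart.

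Th17 genes overlapped for the most part. Il17a was 15.8, 11.9, 13.1, 6.38 and 10.4 CPM in rich WT 1, WT 5, cKO 1, cKO 3 and cKO 4 and 14.0, 7.98, 2.30 and 14.3 CPM in poor WT 2, WT 3, WT 4 and cKO 2. In Ccr6, a chemokine receptor of Th17 cells, WT 3 and WT 4 were the lowest of all 9 libraries (7.60 and 2.82 CPM against 12.5 to 48.02 elsewhere). Stat3, Batf and Il21 were apart and lower in the rich group, with log2 ratios of -0.51, -0.48 and -0.85. Ccr7, the lymph node homing receptor, was apart and lower (22.9 ± 9.22 against 62.1 ± 15.4 CPM) and Il7r, the interleukin 7 receptor, apart and higher (82.6 ± 10.99 against 44.5 ± 20.8).

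Of the 9 glucocorticoid-induced genes past the filter, 6 had higher means in the rich group. Apart and higher were 2 of the 9, beside 8.12% of all genes, and nothing is read from so small a count. Dusp1, a phosphatase that turns off stress kinases, was 579 ± 104 against 285 ± 85.6 CPM, and Sgk1, a serum and glucocorticoid-induced kinase, 113 ± 15.3 against 57.0 ± 26.0. Both are also early-response genes of other stimuli. Fkbp5 and Tsc22d3, which are classical GR targets, overlapped, with log2 ratios of -0.47 and 0.43.

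Within each genotype the sign of the 30 named genes is fixed by their choice, since they were taken as apart over all 9 libraries, and only the sizes are described. The 2 rich and 3 poor WT libraries gave larger ratios than the 3 rich and 1 poor cKO library for each of the 15 higher genes, for example 2.93 against 1.57 for Apoe, 1.64 against 0.74 for Foxp3 and 1.59 against 0.55 for Fosb on the log2 scale. For lower genes the values lay closer, with -2.75 and -2.49 for Birc5 and -2.51 and -2.57 for Ccnb2. Whether the ratios differ between genotypes was not tested, since the cKO value rests on the single poor library cKO 2.

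**Figure D4:**
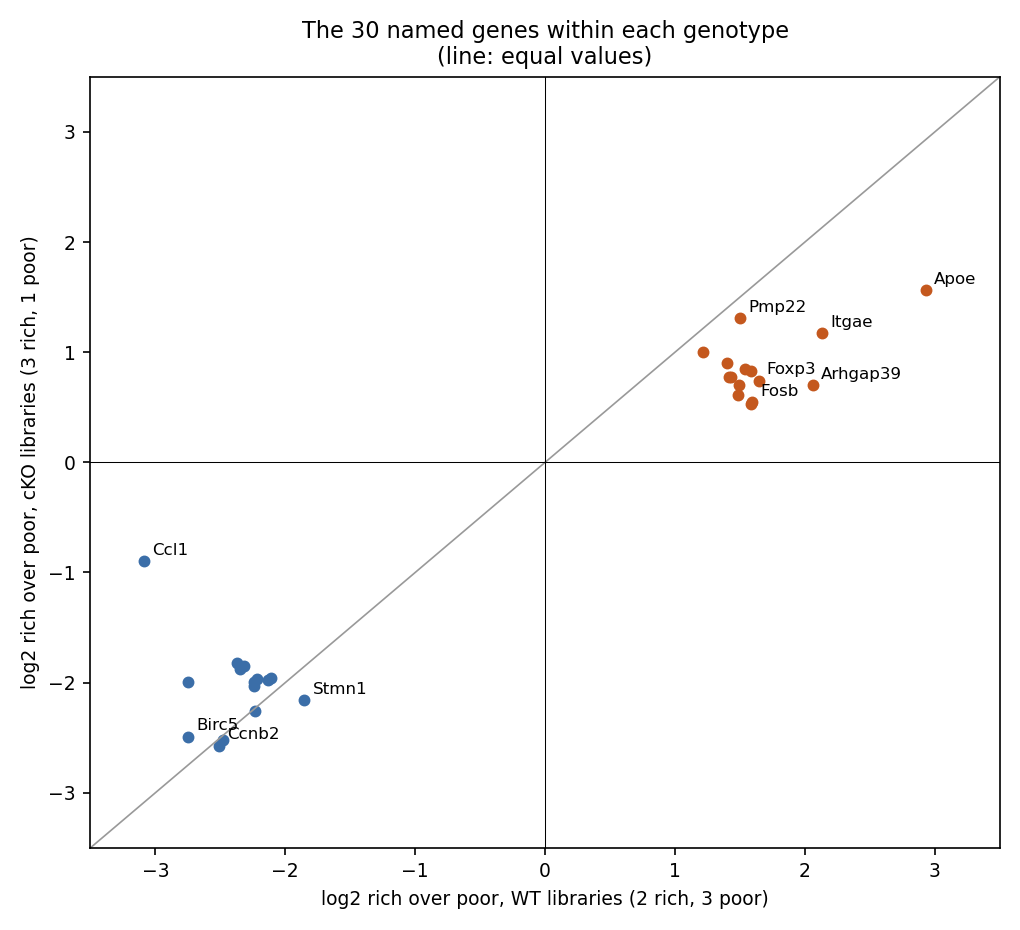
Log2 rich over poor ratio of the 30 named genes within the WT libraries (x axis, 2 rich and 3 poor) and within the cKO libraries (y axis, 3 rich and 1 poor), higher genes in orange and lower genes in blue, with a line of equal values. The choice of genes apart in all 9 libraries fixes the shared sign of each point. The 15 higher genes lie below the line, and Ccl1 lies farthest from it among the lower ones.

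The comparison that the study was designed for, GR cKO against WT, runs across this split. Nr3c1, the targeted gene, was 18.8, 14.8, 13.0, 13.1 and 15.1 CPM in WT 1 to WT 5 and 8.45, 6.76, 10.2 and 8.25 CPM in cKO 1 to cKO 4, so every cKO library lay below every WT library but none near 0. The log2 difference was -0.83 ± 0.18 (SE), and -0.95 ± 0.15 with the rich or poor group as a term in the fit. In edgeR's quasi-likelihood test these had unadjusted p-values of 0.000617 and 5.62e-05 and Benjamini-Hochberg adjusted p-values of 0.580 and 0.595. Between rich and poor libraries Nr3c1 did not separate (log2 ratio 0.03).

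No gene passed in that comparison: 0 of 10597 (0%) had an adjusted p below 0.05 in edgeR, with 870 at an unadjusted p under 0.05 and a smallest adjusted p of 0.455. With the group as a term, 0 passed, with 680 at an unadjusted p under 0.05. DESeq2 called 3 genes, Chil3, Il4i1 and Hist1h2bm. Chil3, a chitinase-like protein of macrophages, was 57.7 ± 25.2 CPM in WT and 257 ± 94.4 in cKO, a log2 difference of 2.17 ± 0.35 that was 1.98 ± 0.37 with the term. Il4i1, an amino acid oxidase, was 11.2 ± 1.96 against 5.01 ± 0.87 CPM, -1.16 ± 0.19 without and -1.12 ± 0.20 with the term. For these 2 genes WT and cKO libraries did not overlap, and the group term moved the difference little.

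Other genotype differences moved more than that of Il4i1 when the group entered the fit. All 25 proliferation genes had a negative log2 difference of cKO against WT, with a median of -1.23 beside -0.001 for all genes. In edgeR 8 of the 25 had an unadjusted p under 0.05, beside 870 of all 10597 genes. With the group as a term the median was -0.57 and all 25 were still negative. In that fit 11 had an unadjusted p under 0.05, beside 680 of the 10597, and none passed adjustment. Among the rich libraries alone, 2 WT against 3 cKO, the median was -0.40. There 1 of the 25 had an unadjusted p under 0.05, beside 538 of 10678 genes. With the log2 sum of the 18 general myeloid genes, which leaves out Apoe, as a covariate the median was -0.25 with 23 of 25 negative. With this covariate 0 of the 25 had an unadjusted p under 0.05, beside 470 of the 10597. Ccl1 went from -2.01 ± 0.73 to -0.64 ± 0.57 with the term and to 0.17 ± 0.41 in the rich libraries. Cholesterol synthesis went from a median of -0.52 to -0.37 and to -0.02. The general myeloid genes went from 0.29 to 0.17 and to -0.03, but the groups were set from myeloid markers, so nothing is read from that change. The dendritic cell genes, 9 of them past the filter, went from a median of -1.10 to -0.97 with the term. Their median was -0.705 with the 18-gene general myeloid sum as a covariate, and -0.61 over the 8 genes past the filter in the rich libraries. Genotype and myeloid RNA are unevenly crossed in these 9 libraries, with a single poor cKO library, and can be told apart only as far as these fits allow.

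The 10 libraries of the Cyp11a1 experiment, 4 WT and 6 cKO, offer values that the grouping did not use. Their cells were likewise sorted 2D2+ T cells from the central nervous system at peak EAE, and the knocked-out gene, Cyp11a1, encodes the enzyme that starts steroid synthesis. Myeloid RNA was far scarcer there: the 18 general myeloid genes summed to 324 to 793 CPM against 3112 to 7916 in the GR libraries, and Apoe ranged from 27.0 to 386 CPM. Apoe was 159, 42.0, 27.0 and 199 CPM in WT 1 to WT 4 and 34.9, 386, 69.2, 67.2, 152 and 333 CPM in cKO 1 to cKO 6. The proliferation sum was 1176, 2471, 2425 and 1573 CPM in the same WT libraries and 2547, 1765, 2171, 2435, 2107 and 2061 CPM in the cKO libraries. The libraries low in Apoe were those high in proliferation genes.

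Across these 10 libraries log2 Apoe and log2 of the proliferation sum had a Spearman rho of -0.82 (permutation p = 0.006, adjusted p = 0.0453 over the 17 relations computed) and a Pearson r of -0.63 (permutation p = 0.0442, adjusted p = 0.251). Without WT 3 and cKO 2, the libraries farthest from the median of Apoe, r was -0.61. Within the 6 cKO libraries rho was -1 (exact permutation p = 0.0028, the smallest that 6 libraries allow) and r -0.90 (exact permutation p = 0.0125), and the 4 WT libraries were too few. Cholesterol synthesis (rho = -0.78, permutation p = 0.0105, adjusted 0.0453) and glycolysis (rho = -0.78, permutation p = 0.0106, adjusted 0.0453) showed the same sign. Their Pearson r of -0.71 and -0.56 had adjusted permutation p-values of 0.190 and 0.359. These relations were looked at after the GR values were known.

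The 48-gene sum against proliferation had a rho of -0.20 (permutation p = 0.580, adjusted 0.717) and an r of -0.01 over the 10 libraries. Within the 6 cKO libraries these were -0.83 (exact permutation p = 0.0583) and -0.72 (exact permutation p = 0.0861), the same sign as for Apoe. The genotypes differ in myeloid RNA here, with general myeloid sums of 324 to 419 CPM in WT and 482 to 793 in cKO. Foxp3 and Itgae had no relation with Apoe that passed adjustment (rho = 0.38 and 0.42, adjusted permutation p = 0.533 for each). For Itgae r was 0.04 without WT 3 and cKO 2, and rho 0.03 within the cKO libraries (exact permutation p = 1). For Foxp3 rho within the cKO libraries was 0.77 (exact permutation p = 0.103), but with the 48-gene sum over all 10 libraries it was -0.38 (permutation p = 0.282, adjusted 0.533). Apoe and the microglial sum had no detectable relation at this number of libraries (rho = 0.19, permutation p = 0.610). In these 10 libraries the 48-gene sum ran with MHC class II (rho = 0.85, permutation p = 0.0028, adjusted 0.0453; r = 0.83 and 0.81 without cKO 2 and cKO 6). Within the 6 cKO libraries this did not pass (rho = 0.71, exact permutation p = 0.136, and r = 0.68, exact permutation p = 0.147).

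**Figure D5:**
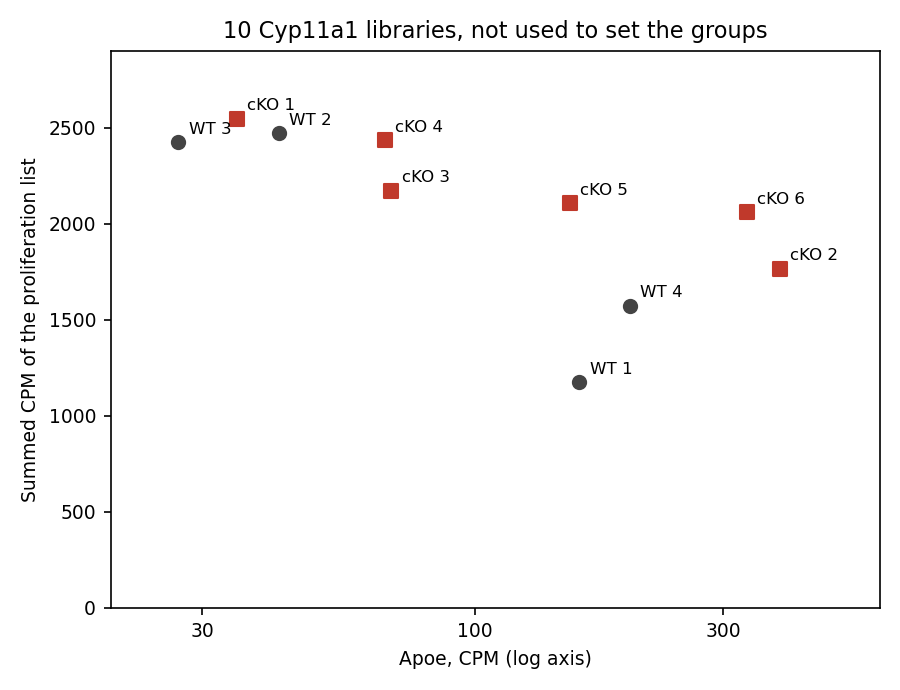
Apoe in CPM (x axis, log scale) against the summed CPM of the proliferation list (y axis, from 0) in the 10 Cyp11a1 libraries, WT as dark circles and cKO as red squares. Libraries with Apoe below 70 CPM have sums of 2171 to 2547, and those above 150 have sums of 1176 to 2107.

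In the Cyp11a1 genotype comparison 18 of 10125 genes passed in edgeR, 14 higher (0.138%) and 4 lower (0.0395%) in cKO, and none was among the genes that were at least 2-fold apart in the GR libraries. Of the 268 genes lower in the rich group 265 were measured there, and 221 of them (83.4%) had a positive log2 difference with a median of 0.16, beside 50.5% and 0.003 over all genes. This rested on single libraries: without WT 1 the count was 144 of 266 with a median of 0.02. Of the 146 higher genes 80 passed the filter there, and 34 of them were positive. Foxp3 was 31.4 ± 23.8 CPM in Cyp11a1 WT and 10.04 ± 8.50 in cKO (log2 difference -1.66 ± 0.66, adjusted p = 0.565 in edgeR), with its highest values in WT 1 and WT 4.

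The 12 libraries of cultured inflammatory Th17 cells, which were never transferred into recipients, came from 4 conditions of 3 libraries each. These were control, dexamethasone (a corticosteroid), TGF-b1 (a cytokine) and both together, for 2 days, and the values below pool them. In these 12 libraries 51 of the 146 higher genes were under 1 CPM in every library, among them Trem2 with 0 counts. Of the 268 lower genes 177 were above 10 CPM in every library, such as Cdk1 (115 to 166 CPM). Shares over all genes were not computed for these levels, so nothing is read from the counts of 51 and 177. Foxp3 (0 to 1.70 CPM) and Itgae (0 to 6.66 CPM) were low there, and Apoe was 1.51 to 9.88 CPM. Levels set across the experiments are not tested, because each table was scaled separately.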

How the data were processed

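RNA of 2000 sorted cells per library was amplified by a modified SMART-Seq2 protocol without molecular identifiers or strand information, per the labels' protocols. The authors deposited unnormalised counts per gene symbol in 3 tables of 31053 symbols, and each column name gave its library. RSEM 1.3.3 and mm10 are named by the submitters' processing notes. Gene positions were taken from GENCODE M21 (30464 symbols matched).

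In R 4.3.3, genes were kept by filterByExpr and scaled by TMM in edgeR 4.0.16. Groups that do not overlap and differ at least 2-fold were counted for rich against poor. Genotypes were compared by edgeR's robust quasi-likelihood test with Benjamini-Hochberg adjustment at 0.05, and with the group as a term. DESeq2 1.42.0 was an alternative. The tests were checked on simulated counts with the same spread for all genes and no difference in cell composition between libraries. That check does not show what the tests can find in the GR libraries. Replicate pairs differed by more than counting error (chi-square per degree of freedom 5.54 to 142 over genes with at least 20 counts), so no library was counted as another deposited again. Separate amplifications from the same recipient would differ in this way too, so this does not show that libraries are biological replicates.

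Named genes were the 15 per direction with the largest ratio among genes apart and at least 2-fold different whose mean log2 CPM reached 4, without predicted genes, RIKEN clones, receptor segments and pseudogenes, and the members of 26 lists, Nr3c1, Cyp11a1, and the 5 smallest p-values per direction of the genotype fits. The groups, lists and rules were chosen with earlier results of these data known. Correlations in the Cyp11a1 libraries used 100000 permutations, or all orders for 6 libraries. Replicate numbers did not pair the samples. Counting floors are 3 counts per library and cover counting error only. Values of 1 gene of the Th17 list are not reported here.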

Additional observations from a re-analysis of the deposited data

Results flagged for a closer look

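In 112 groups of 4 or 5 GR libraries (26 list sums and 30 named genes, each in the rich and the poor group), 7 held a library far from the others by Dixon's criterion, beside about 1 in 20 that chance gives. That number is near the chance rate, so no single flag is read as a feature of its library. cKO 1 stood below the other rich libraries in the general myeloid sum (6387 CPM, with a gap of 0.856 of the range) and in Mylip (20.0 CPM). It is also the lowest rich library in the 48-gene sum. WT 1 stood above the other rich libraries in the MHC class II sum (4771 CPM), and WT 5 in the erythroid sum (243 CPM), where poor WT 3 and WT 4 also had values (279 and 123 CPM). cKO 2 stood above the poor WT libraries in Foxp3 (19.1 CPM), Snx29 (14.2 CPM) and the stem and memory list (360.5 CPM). For that last list the rich over poor ratio was 0.15 in WT and -0.21 in cKO on the log2 scale, with no overlap of the groups in either genotype, and this difference was not tested.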

How the results depend on the processing

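The count of 146 higher genes became 30 with library totals alone, 231 without a low-count filter, 78 with a mean count of at least 50, 422 in WT and 303 in cKO libraries alone, 510 at 1.5-fold and 16 at 3-fold, and 134 to 291 leaving out a library (291 without cKO 2). The count of 268 lower genes became 115 with a mean count of at least 50, 430 in WT libraries alone, 602 at 1.5-fold and 134 at 3-fold, and 224 to 376 leaving out a library. Library totals moved the median of all genes from 0.02 to -0.14. The cause of these shifts was not tested, except that fewer libraries separate more easily by construction. Among the 30 named genes, 509 of 540 alternative values moved by less than the spread and 31 by more. Their sign says nothing about stability where libraries were left out or genotypes split, because genes apart over all 9 libraries must keep it. Nr3c1, at 0.03, changed sign with library totals (-0.016) and without WT 1, WT 5 or cKO 2 (-0.18 to 0.154 leaving out each library).

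GR genotype calls were 0, and 2 with library totals (Chil3 and Xlr3a), 3 with DESeq2, and 0 to 1 leaving out a library (Snhg9 without WT 3). Cyp11a1 calls were 18, and 33 without a filter, 9 with the 18-gene general myeloid sum as a covariate and 63 with DESeq2. Leaving out a library gave 9 to 22 (11 without WT 1, 10 without WT 4, 9 without cKO 5). With a replicate block there were 0 GR and 1 Cyp11a1 calls, but same-numbered libraries did not deviate together (correlations -0.24 to 0.13 and -0.14 to -0.04). Genes near 3 counts per library cannot be compared at this depth.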

Other observations

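Clock genes were looked at after Nr1d1 and Nr1d2 were seen among the higher genes, so their values carry no test. Of 13 clock genes past the filter, 10 had higher means in the rich group. Apart and higher were 7 of them, beside 8.12% of all genes. Nr1d1, a heme-binding repressor of the clock, was 12.0, 11.6, 9.08, 9.85 and 9.05 CPM in rich WT 1, WT 5, cKO 1, cKO 3 and cKO 4 and 3.44, 1.48, 0.51 and 4.78 CPM in poor WT 2, WT 3, WT 4 and cKO 2. Nr1d2 (9.47 ± 1.60 against 3.40 ± 0.64 CPM), Bhlhe41 (6.02 ± 1.72 against 2.79 ± 0.17) and Tef (4.13 ± 0.49 against 2.02 ± 0.41) were apart in the same direction, as were Hlf, Ciart and Clock. Arntl, which the Nr1d proteins repress, was 19.6 ± 2.89 against 13.7 ± 3.15 CPM and overlapped, and Per2 and Cry1 were not higher. The levels of the 7 genes apart are low, and the labels used here give no time of day of collection.

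Of 36 replication-dependent and other histone genes past the filter, also chosen after their values were seen, 30 had lower means in the rich group. Their median log2 ratio was -0.88. Apart and lower were 7 of the 36, beside 11.0% of all genes, and the rest overlapped. Pltp, which moves phospholipids between lipoproteins, was 19.3 ± 5.07 against 9.76 ± 1.84 CPM, and Scd2, a fatty acid desaturase, 9.46 ± 0.69 against 13.9 ± 2.70 CPM, both apart.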
